A study of Mus musculus with 8 samples.

Results

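Elastic fibres and microfibrils are the stretchable part of the dermal matrix, and 10 genes of their structural proteins are described here in adipocyte precursors, mesenchymal skin cells that can form fat cells. The members were Eln, Fbn1, Fbln1, Fbln2, Fbln5, Efemp2, Mfap2, Mfap4, Mfap5 and Emilin1, chosen by gene symbol, and they held 13 of the 34535 isoforms and 10 of the 24358 gene symbols in the table. The cells were sorted by flow cytometry from the dermis of male C57/Bl6 mice aged 7 weeks, from the day 5 wound bed in 2 samples and from nonwounded dorsal skin in 6 samples. The sort gate and the number of animals behind each sample were not given in the sources used here. The spread between samples that enters the p-values may therefore be technical, and the p-values speak only for these samples.

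An elastic fibre has a core of elastin, made from secreted tropoelastin monomers that lysyl oxidases crosslink, and a mantle of microfibrils built on fibrillins. Fibulins, microfibril-associated glycoproteins and emilins sit at the interface, and fibulin-4 and fibulin-5 are needed for elastin to be laid down on the microfibrils. Microfibrils also hold latent transforming growth factor beta in the matrix through the latent TGF-beta binding proteins. In skin the fibres are made by fibroblasts, and scars are known to be poor in mature elastic fibres.

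Levels are FPKM, fragments scaled to transcript length and library size, with 1 value for each isoform and group as the authors deposited it. The table has no value per sample, so no SD, interval or count of samples per direction can be given, and the depth is unknown. An isoform was called when its Cuffdiff p-value from the authors' deposited table, adjusted by the Benjamini-Hochberg method over the 17775 tested isoforms, was under 0.05. In these bulk samples, fewer cells of a type and less RNA per cell cannot be told apart.

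The 10 genes did not move as a block. In the wound bed, 1 isoform each of Emilin1, Fbln2, Efemp2 and Fbln1 rose and 1 isoform each of Eln, Fbln5, Mfap5 and Mfap2 fell. The other isoforms of Fbln2, Efemp2 and Mfap2 were not called. All 13 isoforms were tested, of which 4 were called higher, 4 lower and 5 not called. Over all tested isoforms 12.9% were called, 5.66% higher and 7.25% lower. Calls were more frequent among abundant isoforms, with 22.6% of 6122 called where the higher group reached an FPKM of 10, a level that 12 of the 13 isoforms passed. At an adjusted p under 0.01, 3 of the 13 were higher and 3 lower, where 8.24% of all tested isoforms were called, and at one under 0.1, 6 were higher and 4 lower, where 17.7% were. When calls also had to reach a log2 fold change of 1 in size, 2 were higher and 4 lower, where 10.9% of all were called.

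With a single isoform per gene, the tested one with the highest summed FPKM, 4 of the 10 genes were called higher and 3 lower, against 15.7% of 13719 genes called in all (7.00% higher and 8.68% lower), and 23.0% of those that reached an FPKM of 10 in either group. Under the same size limit, 2 genes were higher and 3 lower, where 13.1% of all were called. The median log2 fold change of the 10 was 0.76, wound bed over nonwounded, and ran from -1.70 for Eln to 1.87 for Emilin1. Over all such isoforms with no value of 0 the median was -0.14. With the isoforms of each gene summed, the median of the 10 was 0.36. Among the single isoforms, Mfap2 was represented by NM_001161799 (0.88, not called) and not by NM_008546 (-4.34, called lower).

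**Figure D1:**
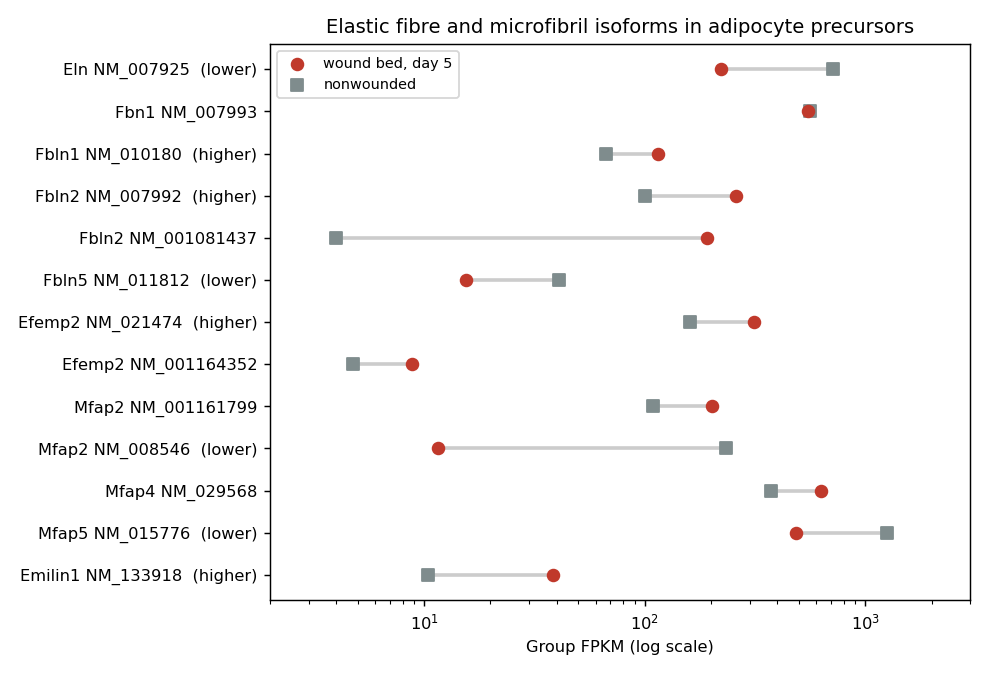
Group FPKM (horizontal log axis) of the 13 isoforms of the 10 genes, with a red circle for the day 5 wound bed, a grey square for nonwounded skin and the direction of each call in brackets. The circle lies left of the square for Eln, Fbln5, Mfap5 and Mfap2 NM_008546, and the Fbn1 symbols overlap at 549.7 and 559.6.

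Elastin fell. Eln, which encodes tropoelastin, had an FPKM of 221 in wound bed cells and 716 in nonwounded cells, a log2 fold change of -1.70 (Benjamini-Hochberg adjusted p = 0.0110, from the authors' Cuffdiff p-values). It was the second most abundant of the 10 genes in nonwounded skin and held 19.7% of their summed FPKM there, against 7.25% in the wound bed. The table lists it as NM_007925 on chromosome 5 from 134702596 to 134747254, and 152 of its exonic bases in the GRCm38 annotation are shared with Gm30003 on the other strand. Vascular smooth muscle also makes elastin, and its defining genes Myh11 and Cnn1 had summed FPKM values of 0.119 and 0.183 in the wound bed and 0.170 and 0.0558 in nonwounded skin. Neither of these genes was tested. In the whole list of smooth muscle and pericyte markers, 2 of 7 tested genes were higher and 1 lower, with a summed FPKM of 83.3 in the wound bed, against 76.0 in nonwounded skin, and none at 0. Acta2 rose to 33.4 in the wound bed, against 1.81 in nonwounded skin. Tagln rose to 15.9 in the wound bed, against 1.94 in nonwounded skin, while Kcnj8 fell to 14.9 in the wound bed, against 58.3 in nonwounded skin. The part of such cells in the level of Eln was not tested.

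The main fibrillin gene had like values in the groups. Fbn1, which encodes fibrillin-1, the backbone of adult microfibrils, stood at 549.7 in wound bed cells and 559.6 in nonwounded cells (log2 fold change -0.03, Benjamini-Hochberg adjusted p = 0.983, from the authors' Cuffdiff p-values). That p does not show that the levels were equal, and no interval can be given. The table lists Fbn1 as NM_007993 on chromosome 2 from 125300594 to 125506438, where 397 of its exonic bases are shared with Gm9913 on the other strand. Whether reads were counted by strand was not given in the sources used here. The second fibrillin gene, Fbn2, best known from developing tissue and not one of the 10, rose to 31.0 in the wound bed, against 11.3 in nonwounded skin. The level of Fbn1 was 17.8 times that of Fbn2 in the wound bed and 49.4 times in nonwounded skin. The level of Eln was 0.402 times that of Fbn1 in the wound bed and 1.28 times in nonwounded skin. With 1 value per group, whether either difference exceeds the spread between samples cannot be told.

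The fibulins needed for elastic fibre assembly went opposite ways. Fbln5 encodes fibulin-5, which ties tropoelastin to microfibrils and cells, and fell to 15.6 in the wound bed, against 40.9 in nonwounded skin (log2 fold change -1.39, Benjamini-Hochberg adjusted p = 0.000882, from the authors' Cuffdiff p-values). Efemp2 encodes fibulin-4, which binds lysyl oxidase and tropoelastin, and its major isoform NM_021474 rose to 314 in the wound bed, against 160.1 in nonwounded skin (0.97, Benjamini-Hochberg adjusted p = 0.00306, from the authors' Cuffdiff p-values). With isoforms summed, Efemp2 exceeded Fbln5 by 20.8 times in the wound bed and by 4.03 times in nonwounded skin. The other Efemp2 isoform, NM_001164352, differs at its 5′ end and was minor, at 8.80 in wound bed cells and 4.75 in nonwounded cells, without a call. Fbln5 (NM_011812) lies on chromosome 12 from 101746565 to 101819119 and Efemp2 on chromosome 19 from 5474690 to 5481854. Efemp1, the fibulin-3 gene of the same subfamily and not one of the 10, stood at 289 in wound bed cells and 475 in nonwounded cells without a call.

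The long fibulins rose. Fbln1, whose product lies in elastic fibres and basement membranes, stood at 115 in wound bed cells and 66.9 in nonwounded cells, a log2 fold change of 0.78 (Benjamini-Hochberg adjusted p = 0.0325, from the authors' Cuffdiff p-values). This was the weakest of the 8 calls and was lost at an adjusted p under 0.01, as was that of Eln. The gene (NM_010180) lies on chromosome 15 from 85206008 to 85286294. Fbln2, which encodes fibulin-2, a partner of fibronectin, elastin and fibrillin, had its major isoform NM_007992 at 260.3 in wound bed cells and 100.2 in nonwounded cells (1.38, Benjamini-Hochberg adjusted p = 0.00306, from the authors' Cuffdiff p-values). Summed over isoforms, Fbln2 reached 452 in wound bed cells and 104 in nonwounded cells, a log2 fold change of 2.12 that is the largest among the sums of the 10 genes. The gene lies on chromosome 6 from 91212764 to 91272540.

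The Fbln2 isoforms differ by 1 base at the 3′ end and by 1 exon, shown here because the form without it had unlike levels in the groups. It is exon 9 of 18, on the plus strand at chr6:91259630-91259770 of GRCm38, 141 bases long and in frame, and it encodes a calcium-binding EGF-like repeat. The exon is in capitals below with 20 bases of the neighbouring exons in lower case, and the joined flanks of the form without it follow. Both were read from the GENCODE M21 transcripts paired with the table's RefSeq identifiers.
Fbln2 NM_007992, exon present: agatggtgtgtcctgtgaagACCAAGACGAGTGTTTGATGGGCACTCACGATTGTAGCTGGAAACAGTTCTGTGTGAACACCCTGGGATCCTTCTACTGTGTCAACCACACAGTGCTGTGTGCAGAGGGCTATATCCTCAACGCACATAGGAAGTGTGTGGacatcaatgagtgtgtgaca
Fbln2 NM_001081437, exon absent: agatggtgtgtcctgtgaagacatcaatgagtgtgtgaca

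The form without exon 9 stood at 192 in wound bed cells and 3.97 in nonwounded cells. It made up 42.5% of the summed Fbln2 FPKM in wound bed cells and 3.82% in nonwounded cells. The isoform was not called, although its log2 fold change was 5.59 (p = 0.0131 in the authors' deposited table, Benjamini-Hochberg adjusted p = 0.0816). The split between the forms rests on the reads that cover 1 exon and its junctions, and the switch itself was not tested in the table. A gap between isoforms as large as that of Fbln2, 4.22 on the log2 scale, was found in 52 of the 422 genes with at least 2 tested isoforms of FPKM 10 or more in the higher group (12.3%).

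**Figure D2:**
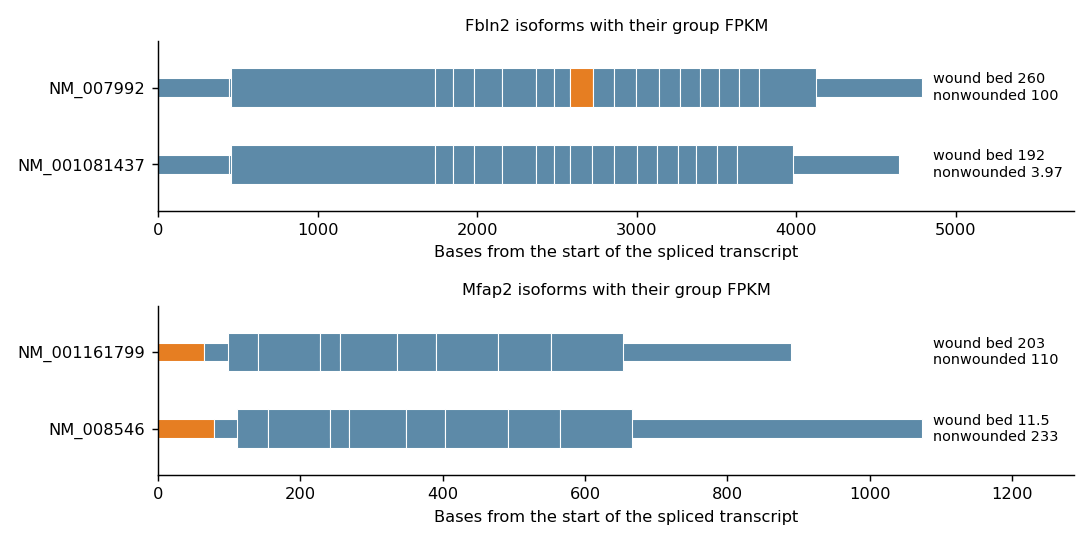
Exons of the Fbln2 and Mfap2 isoforms along the spliced transcript (horizontal axis, bases from its start), with tall boxes for coding and low boxes for noncoding bases, orange for an exon that the other isoform lacks, and each group's FPKM at the right. The Fbln2 forms differ by a coding exon of 141 bases, while the Mfap2 forms share every coding exon and differ at their ends.

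The microfibril-associated glycoprotein genes had called isoforms only in the lower direction. Mfap5, which encodes MAGP-2, a fibrillin-binding protein, was the most abundant of the 10 genes in nonwounded skin. It stood at 487 in wound bed cells and 1253 in nonwounded cells, a log2 fold change of -1.36 (Benjamini-Hochberg adjusted p = 0.00428, from the authors' Cuffdiff p-values). Its share of the summed FPKM of the 10 genes was 16.0% in wound bed cells and 34.5% in nonwounded cells. Among isoforms ranked by level, without those with too many fragments or a failed estimate, it was 172nd in the wound bed and 47th in nonwounded skin. Mfap5 (NM_015776) lies on chromosome 6 from 122513676 to 122529287.

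Mfap2 encodes MAGP-1, the other member of this pair, and its isoforms diverged. NM_008546 fell to 11.5 in the wound bed, against 233 in nonwounded skin (log2 fold change -4.34, Benjamini-Hochberg adjusted p = 0.000882, from the authors' Cuffdiff p-values). NM_001161799 stood at 203 in wound bed cells and 109.7 in nonwounded cells (0.88) and was not called (Benjamini-Hochberg adjusted p = 0.319, from the authors' Cuffdiff p-values). The direction for the gene therefore depended on how the isoforms were combined, since their sum was 214 in wound bed cells and 343 in nonwounded cells, a log2 fold change of -0.68. NM_008546 made up 5.39% of the Mfap2 signal in wound bed cells and 68.0% in nonwounded cells. The table places the gene on chromosome 4 from 141010424 to 141015984.

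The Mfap2 forms encode the same protein, since all 8 coding exons and the coding length of 555 bases are shared in the GRCm38 annotation. They differ in the first exon, 65 bases long in NM_001161799 and 78 in NM_008546, and in the last, which runs 170 bases further in NM_008546. Most of each transcript therefore cannot tell the forms apart, and their FPKM rest on how Cuffdiff assigned the shared reads. The gap of 5.22 on the log2 scale between them was matched or exceeded in 37 of the same 422 genes (8.77%).

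The first exons of Mfap2 start 226 bases apart on the plus strand of chromosome 4, and the sequence before each is shown because the isoform with the called fall starts at the downstream site. Both were taken from the RefSeq promoter table (GRCm38.p6), trimmed to the bases outside the annotated first exons. Capitals mark matches of GGGCGG and GGAATG on either strand.
Mfap2 NM_001161799, chr4:141010174-141010417: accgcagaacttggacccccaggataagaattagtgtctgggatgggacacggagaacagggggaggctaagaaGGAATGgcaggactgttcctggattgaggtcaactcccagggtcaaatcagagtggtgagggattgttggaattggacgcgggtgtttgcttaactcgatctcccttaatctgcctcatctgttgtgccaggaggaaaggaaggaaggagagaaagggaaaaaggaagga
Mfap2 NM_008546, chr4:141010483-141010643: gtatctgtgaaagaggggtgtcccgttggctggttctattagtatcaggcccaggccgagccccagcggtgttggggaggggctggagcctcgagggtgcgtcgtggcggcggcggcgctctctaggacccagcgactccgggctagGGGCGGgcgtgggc

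The stretches differ in base composition. Over the full 250 bases before each RefSeq start, G and C made up 51.2% at the upstream site and 68.8% at the downstream site, against a median of 52.4% over 32851 mouse promoters. GGGCGG, searched on both strands, occurred 2 times before the downstream start (1 of them in the stretch printed) and 0 times before the upstream start, and 32.7% of all promoters hold it. GGAATG occurred 1 time before the upstream start and 0 times before the downstream one, and 12.6% hold it. TATAAA (12.4% of promoters) and TGANTCA (6.75%) were in neither window. These matches describe letters and not binding. Of the 10 genes 7 matched an entry of this promoter table.

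Mfap4 encodes a fibrinogen-related protein that binds elastic fibres and microfibrils, and it was the most abundant of the 10 genes in the wound bed. It stood at 629.8 in wound bed cells and 376 in nonwounded cells (log2 fold change 0.74) and was not called (Benjamini-Hochberg adjusted p = 0.0876, from the authors' Cuffdiff p-values). The level of Mfap4 was 1.29 times that of Mfap5 in the wound bed and 0.300 times in nonwounded skin. Mfap4 (NM_029568) lies on chromosome 11 from 61485444 to 61488704.

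Emilin1 encodes a glycoprotein of the interface between elastin and microfibrils. It rose to 38.3 in the wound bed, against 10.4 in nonwounded skin, which is 1.87 on the log2 scale (Benjamini-Hochberg adjusted p = 0.000882, from the authors' Cuffdiff p-values). It had the largest log2 fold change of the called isoforms that rose, and the lowest nonwounded level of the 10 genes. Emilin1 (NM_133918) lies on chromosome 5 from 30913786 to 30921273. Its relative Emilin2 stood at 132 in wound bed cells and 182 in nonwounded cells without a call, and exceeded Emilin1 by 3.44 times in the wound bed and 17.5 times in nonwounded skin.

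The summed FPKM of the 10 genes was 3045 in wound bed cells and 3636 in nonwounded cells (log2 -0.26). In order of their summed isoforms, the genes ran Mfap4, Fbn1, Mfap5, Fbln2, Efemp2, Eln, Mfap2, Fbln1, Emilin1 and Fbln5 in the wound bed. In nonwounded skin the order was Mfap5, Eln, Fbn1, Mfap4, Mfap2, Efemp2, Fbln2, Fbln1, Fbln5 and Emilin1. With 1 value per group, which neighbours in either order differ beyond the spread between samples cannot be told.

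**Figure D3:**
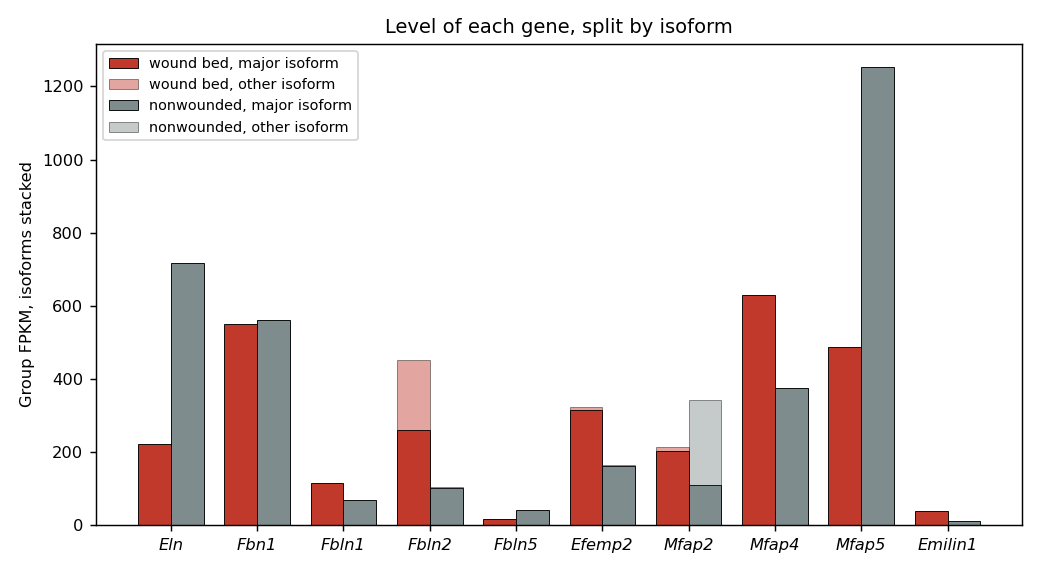
Summed group FPKM (vertical axis, linear from 0) of each gene, with the wound bed bar in red left of the nonwounded bar in grey, and paler parts for the isoform other than the major one. Mfap5 (487 against 1253) and Eln (221 against 716) are lower in the wound bed, and the paler parts of Fbln2 (192 against 3.97) and Mfap2 (11.5 against 233) lie mostly in opposite groups.

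The partners of these proteins were described in 12 lists that also hold the 10 genes. Of 74 tested genes in them that are not among the 10, 22 were called higher and 6 lower, or 37.8%. Their median log2 fold change was 0.33. Over all genes tested the share called was 15.7%, and it was 23.0% among those that reached an FPKM of 10 in either group. Of the 74 genes, 50 reached that level. The lists were written with earlier results of these data known, so these shares are a description and not a test. In the wider fibulin family, Fbln7 rose by 3.10 and Hmcn1, the hemicentin-1 gene, by 1.77 on the log2 scale. Of the other genes with the Mfap name, 0 of 4 were called: Mfap1a and Mfap1b, near-identical copies of a splicing factor gene whose reads may be split between them, stood at -0.66 and -0.58, Mfap3 at 0.11 and Mfap3l at -1.68. Of the 6 genes in the list of EMI domain proteins, 4 were not tested, among them Emilin3.

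The latent TGF-beta binding protein genes also divided. Ltbp4, whose product works with fibulin-5 in elastic fibre assembly, fell to 4.74 in the wound bed, against 18.9 in nonwounded skin. Ltbp1, which anchors latent TGF-beta 1, fell by 1.24, and Ltbp2 rose by 1.74. Ltbp3 stood at 0.67 and was not called. Thus 2 of 4 were lower and 1 higher.

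Among 5 lysyl oxidase genes, which encode the enzymes that crosslink elastin and collagen, 1 was called. Lox rose to 319.7 in the wound bed, against 118 in nonwounded skin, for its major isoform (log2 fold change 1.44), and a second isoform rose to 38.3 in the wound bed, against 4.98 in nonwounded skin. Loxl2 (0.79), Loxl1 (-0.47), Loxl3 (0.19) and Loxl4 (0.07) were not called. With isoforms summed, the level of Eln was 0.610 times that of Lox in the wound bed and 5.77 times in nonwounded skin.

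Genes of the ADAMTS and ADAMTS-like families, several of which bind fibrillin-1 and aid microfibril assembly, had 2 of 10 higher and 1 lower. Adamtsl4 fell to 13.8 in the wound bed, against 46.8 in nonwounded skin (-1.76). Adamts6 and Adamts17 rose by 2.43 and 1.15 on the log2 scale at low levels, 2.41 and 3.04 in the wound bed and 0.448 and 1.37 in nonwounded skin. Adamtsl1 (-0.42), Adamts10 (-0.92), Adamtsl5 (-0.91) and Adamtsl2 (-1.68) were not called, and the median of the list was -0.92. Of 7 processing and trafficking genes, the proprotein convertase genes Furin and Pcsk6 changed by 0.89 and -1.64 on the log2 scale, and Pcsk5 rose to 68.3 in the wound bed, against 24.1 in nonwounded skin. Furin cleaves profibrillin-1. The chaperone genes Serpinh1 (0.24), Calr (0.09) and Fkbp10 (0.66) and the copper transporter gene Atp7a (0.57) were not called.

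Genes of proteases that can degrade elastin were higher in 5 of 8 tested cases and lower in 0. Mmp12, the macrophage metalloelastase gene, stood at 6.24 in wound bed cells and 0.0933 in nonwounded cells (log2 fold change 6.06). Ctss (3.32), Mmp9 (2.38), Mmp14 (1.77) and Ctsk (1.06) also rose, while Mmp2 (0.66), Ctsl (-0.83) and Prtn3 (3.64) were not called. Of 11 markers of macrophages and monocytes, 9 were called higher and 0 lower, among them Cd14 (3.51) and Adgre1 (1.94) but not Ptprc (3.19), with summed FPKM of 853 in wound bed cells and 245 in nonwounded cells and none at 0. The part of these cells in the protease values was not tested, and Ctss is in both lists. Of 6 tested protease inhibitor genes, Timp1 rose by 5.22 and Timp3 and Cst3 fell by 1.40 and 0.95 on the log2 scale. Timp2 (-0.84), Slpi (5.80) and A2m (3.38) were not called.

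Receptor and TGF-beta genes were higher or not called. At 2 of 10, the receptor calls were near the share of all genes called, 15.7%, or 23.0% at an FPKM of 10 in either group. Of 10 tested receptor genes, Itga5, of the fibronectin receptor, rose by 2.11 and Lgals3, the galectin-3 gene, by 2.20 on the log2 scale, and the others were not called, among them Itgb1 (0.74), Itgb5 (0.17), Itgb3 (0.35) and Ctsa (0.14), whose major isoforms had the highest levels of these. Of 15 genes of TGF-beta ligands, receptors and targets, 5 were higher and 0 lower. Among the higher ones, Bgn, the biglycan gene, rose by 3.16, Tgfb1 by 2.92, Smad7 by 2.57 and Tgfbr1 by 0.75 on the log2 scale. Dcn (-0.15), Tgfbi (-0.57), Tgfbr2 (0.46) and Tgfbr3 (0.33) were not called.

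**Figure D4:**
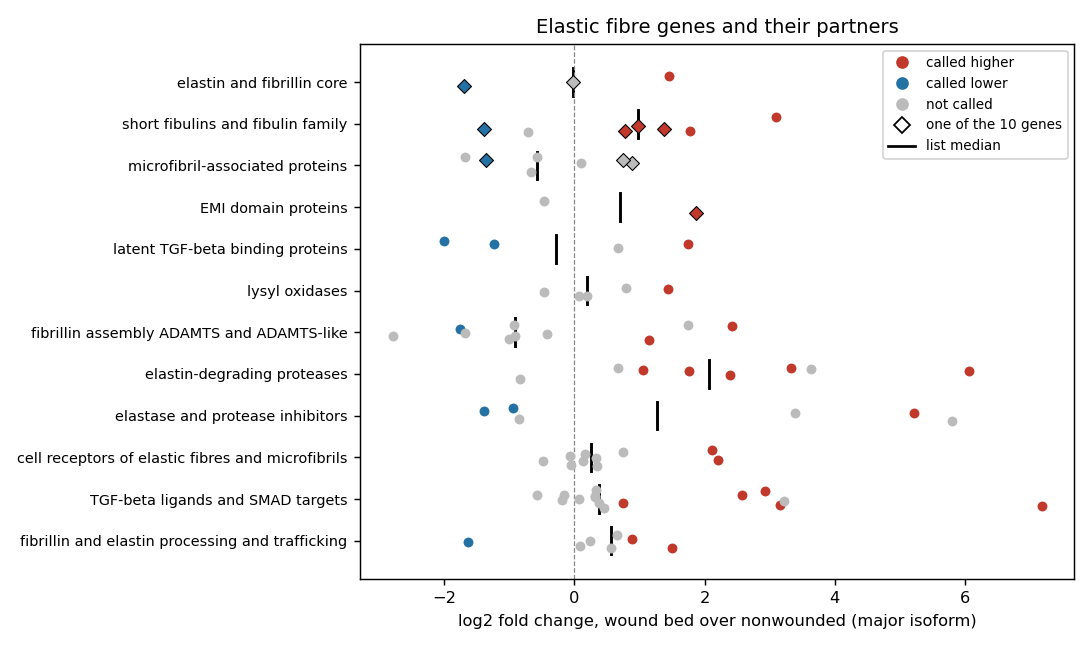
Each point is a tested gene of 12 partner lists (rows), placed by the log2 ratio of wound bed to nonwounded FPKM of its major isoform (horizontal axis), in red for a higher call, blue for a lower call and grey for no call, with diamonds for the 10 genes and a bar at each list's median. The diamonds run from -1.70 (Eln) to 1.87 (Emilin1), and the list of elastin-degrading proteases has no blue point.

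Markers of the labelled cells were present in both groups. Pdgfra stood at 81.2 in wound bed cells and 78.8 in nonwounded cells, Cd34 at 476 and 739, and Ly6a at 1539 and 2149 in the same order, all without a call. Of 9 adipocyte precursor and mesenchymal markers, 0 were higher and 1 was lower. The lower one, Cd24a, stood at 9.38 in wound bed cells and 24.9 in nonwounded cells (log2 fold change -1.41). Markers of universal and adventitial-type fibroblasts, a skin and adipose population that commonly expresses Mfap5 and Fbn1, had 7 of 10 called lower and 0 higher. Over all genes tested 8.68% were called lower, and this marker list was chosen with earlier results of these data known. The summed FPKM of these fibroblast markers was 2349 in wound bed cells and 4836 in nonwounded cells, with none at 0. Dpp4 fell by 1.66 on the log2 scale, while Pi16 (-1.27) and Cd55 (-0.17) were not called. These markers moved in the same direction as Mfap5, Eln and Fbln5, while Fbn1 had like values in the groups (-0.03, without a call). The part of these fibroblasts in the levels of those genes was not tested.

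Markers of other cells were also detected. Endothelial markers had 0 of 5 higher and 1 lower, Lyve1 (-3.28), while Pecam1 (1.06), Cdh5 (0.58) and Kdr (0.11) were not called. Their summed FPKM was 27.0 in the wound bed, against 94.6 in nonwounded skin, and the sums that follow are in the same order. Most of both endothelial sums was Tek, at 18.4 in the wound bed, against 83.1 in nonwounded skin, and its major isoform was not called. Keratinocyte markers had 2 of 7 higher and 0 lower (33.6 and 19.6). Neutrophil markers had 0 of 4 called (104 and 2.50). Lower calls were made for 2 of 7 mature adipocyte (50.2 and 242), 1 of 6 skeletal muscle (8.78 and 101), 4 of 5 mast cell (6.26 and 59.2) and 3 of 4 erythroid markers (135 and 2712), with 0 higher in each, and for 0 of 4 Schwann cell and melanocyte markers (6.92 and 8.06). Slc4a1 of the erythroid list and Sox10 of the Schwann list were listed at 0 in the wound bed. The part of these cells in the values of the 10 genes was not tested.

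**Figure D5:**
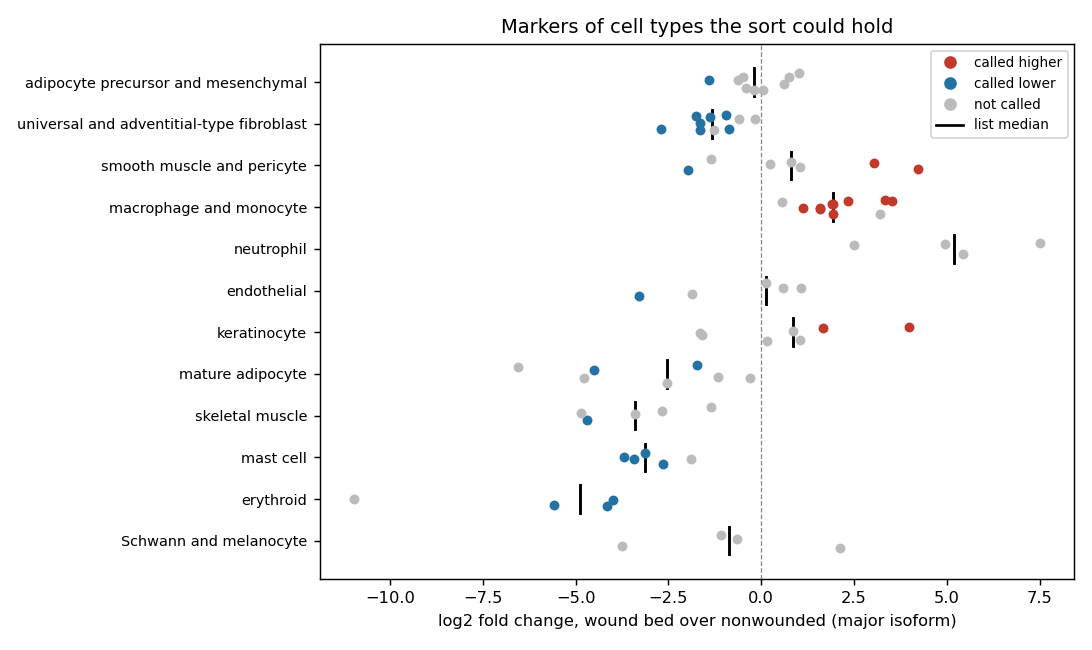
Each point is a tested marker of 12 cell type lists (rows), placed by the log2 ratio of wound bed to nonwounded FPKM of its major isoform (horizontal axis), in red for a higher call, blue for a lower call and grey for no call, with a bar at each list's median. The universal and adventitial-type fibroblast markers lie left of 0 (7 of 10 called lower), and 9 of 11 macrophage and monocyte markers are called higher.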

How the data were processed

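RNA of sorted dermal adipocyte precursors was sequenced from TruSeq mRNA libraries (labels' protocols). TopHat2 2.0.2, Cuffdiff 2.0.2 and the build mm9 are named, without roles, per the submitters' processing notes, and the table's columns and status codes have Cuffdiff's form, so its p-values are called Cuffdiff's here. Each isoform has 1 FPKM per group, pooled over 2 wound bed or 6 nonwounded samples, and 1 p-value, as the authors deposited them. FPKM are not counts, so no count test was run. Value columns of single samples left unused numbered 0.

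Of 34535 isoforms, 17775 carried the status OK and were tested, and 15 with too many fragments or a failed estimate were left out. The adjustment gave the same calls as the deposited significance column for all 34535. The lowest deposited p-value, 5e-05, was held by 1008 isoforms, so that 0.000882 is the lowest adjusted p. Fold changes were computed here as wound bed over nonwounded FPKM without a pseudocount. The deposited fold change column runs the other way and was not used. Cuffdiff divides reads among isoforms of a gene, so forms that share most bases have uncertain levels.

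Loci are those of the table, with starts counted from 1. For all 10 genes an end lay within 59 bases of the GRCm38 position, so the named mm9 is uncertain. Gene symbols that a spreadsheet had turned into dates were restored in 56 isoforms. The adjustment was tested on simulated data. The 10 genes, the 12 partner lists and the 12 marker lists were chosen with earlier results of these data known. Named were all isoforms of the 10 genes, every called gene of a partner list with up to 4 uncalled ones of highest level, and, of the marker lists most related to the results, the first 3 genes, with counts and summed levels for the others. The values of 1 called gene of a partner list are not reported here. Cd24a, Cnn1, Kcnj8, Lyve1, Slc4a1, Sox10 and Tek were chosen after their values were seen. Python 3.11.15, numpy 2.4.6, pandas 2.3.3 and matplotlib 3.10.9 were used.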

Additional observations from a re-analysis of the deposited data

How the results depend on the processing

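Counts of calls among the 10 genes were recomputed with adjusted p thresholds of 0.01 and 0.1, a minimum log2 fold change of 1, adjustment over isoforms with an FPKM of at least 1 or (chosen after seeing the data) 10, isoforms at 0 left out and the isoform with the smallest p. They stayed within 1.5 times of those given, except that a log2 fold change of at least 1 left 2 isoforms and 2 genes called higher, those of Fbln2 and Emilin1, since Efemp2 and Fbln1 changed less. At an adjusted p under 0.1, 6 isoforms were higher, with Mfap4 and the second Fbln2 form added. With the smallest p per gene, 4 genes were lower in place of 3, with Mfap2 added. Centring on the median of -0.11 over 12522 isoforms that reached an FPKM of 1 in each group turned Fbn1 to 0.084, and summing isoforms turned Mfap2 to -0.68. No other direction among the 10 genes changed under centring, summing or a pseudocount of 1. No paired analysis was possible because the table holds 1 value per group, and leaving out a replicate was not run for the same reason. The depth is unknown, so limits set by depth cannot be given.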
